A study of Arabidopsis thaliana and Arabidopsis thaliana x Arabidopsis arenosa and Arabidopsis arenosa with 18 samples.

Results

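The question was whether the change in seed transcripts with an A. arenosa father depended on the A. thaliana mother. It was put to 8 seed libraries of the 14 in the gene table, all those with an A. thaliana mother. For every locus, the hybrid effect with a Col mother (Col hybrid minus Col control) was set against the hybrid effect with a C24 mother (C24 hybrid minus C24 control), and the difference between both effects is called the interaction. The table held 33602 loci, of which 20552 had enough reads to be tested. Whole seeds were harvested 3 days after pollination from plants kept in long days. The Col control was the cross of the male-sterile Col-0 line (labelled ColA9) with Col-0, and the C24 control that of the male-sterile C24 line (C24A9) with C24. The Col hybrid and the C24 hybrid had the same mothers and a diploid A. arenosa var. Strecno father, and, per the labels, 1 A. arenosa plant sired all crosses of the seed experiment. All mothers, controls included, were diploid and hemizygous for a construct that prevents pollen formation. The series describes the Col hybrid as incompatible and the C24 hybrid as compatible. Each group had 2 libraries. The labels do not say whether they came from separate plants, so p-values measure the spread between these libraries, which may be technical.

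Col-0 and C24 are wild-derived strains of A. thaliana; its relative A. arenosa is outcrossing. A seed holds 3 genetically different parts: the embryo, the endosperm, which feeds it and carries more maternal than paternal genomes, and the seed coat, which is purely maternal. The endosperm first divides as nuclei without walls and later forms cells. Crosses between species often fail in the endosperm, where type I MADS-box factors such as AGL62 delay the formation of cells, and where the Polycomb complex of FIS2 and MEA and parental imprinting hold growth genes in check. How far such a cross fails can differ between mothers of the same species.

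Gene reads per seed library ranged from 8931520 to 16149496, so that 3 reads, the floor used for groups without a read, amounted to between 0.179 and 0.354 CPM (read counts scaled to library size with edgeR's TMM factors). Libraries differed within a group: 31430 loci had a read in Col control 1 and 23123 in Col control 2, and 28243 and 23105 in C24 control 1 and 2. In the hybrids, 26084 and 22555 had a read in C24 hybrid 1 and 2, and 24439 and 23272 in Col hybrid 1 and 2. Transposable elements took 1.22% of reads in Col control 1, against 0.0561% in Col control 2. Replicate 1 also had the larger share in the C24 control (0.258% and 0.0577%) and the C24 hybrid (0.250% and 0.0440%). The Col hybrid went the other way (0.0668% and 0.167%). Ribosomal RNA took 1.44 to 2.11% of gene reads in hybrids and 0.340 to 0.770% in controls. Of the tissue markers, the 6 seed coat markers summed to between 1643 and 5409 CPM, and the 7 endosperm markers to between 99.5 and 360 CPM. The 4 embryo markers summed to 37.0 and 14.8 CPM in the C24 control and to between 3.43 and 9.29 CPM in the other groups. Egg cell and synergid markers summed to between 1.34 and 7.93 CPM, both ends in the Col control. Pollen markers summed to between 4.003 and 22.7 CPM, with 1 of 12 at 0 in all 8 libraries, and fruit valve markers to between 106 and 139 CPM. The fruit valve sum exceeded the endosperm sum in C24 control 2 (119 against 99.5 CPM) and in Col hybrid 1 (139 against 135 CPM). How much fruit tissue the seed libraries held was not tested. The endosperm sum was highest in C24 hybrid 1, at 360 CPM, against 157 in C24 hybrid 2, 135 and 212 in the Col hybrid, 133 and 144 in the Col control and 118 and 99.5 in the C24 control. The endosperm markers were AGL62, PHE1, FWA, FIS2, IKU2, MINI3 and ZOU, and 2 of them were called lower in the interaction below. Their sum is thus no separate measure of the amount of endosperm. The part of the marker sums in the results below was not tested. In whole seeds fewer cells of a type cannot be told apart from less RNA per cell.

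The hybrid effect differed between mothers at 285 loci (1.39% of those tested) by edgeR's quasi-likelihood test at an adjusted p under 0.05. At 200 of them (0.973%) the value in the Col cross was the lower one, and at 85 (0.414%) the higher one. The lower loci had the larger differences, with a median interaction of -3.18 on the log2 scale against 1.47 for the higher loci. Over all genes tested the median was -0.02. In the same fit, 3454 genes (16.8%) changed in the Col cross, 2143 upwards (10.4%) and 1311 downwards (6.38%). In the C24 cross 6536 genes (31.8%) changed, 3443 upwards (16.8%) and 3093 downwards (15%). With upper-quartile scaling the Col split turned to 1338 upwards and 1992 downwards, and the median interaction of all genes moved to -0.13, and the interaction calls were 60 higher and 211 lower. At an unadjusted p under 0.05, 3262 genes differed (15.9%), 1904 of them higher (9.26%) and 1358 lower (6.61%), so the unadjusted calls leaned the other way from the adjusted ones.

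The 200 lower loci fell into 5 patterns. At 67 the transcript rose in the C24 cross with no call in Col, and at 47 it fell in the Col cross and rose in the C24 cross. At 41 it fell in the Col cross with no call in C24, at 33 it rose in both crosses and less so in Col, and at 12 it fell in both and more so in Col. Their median level was 15.9 and 15.2 CPM in Col control 1 and 2 and 6.98 and 7.38 CPM in the Col hybrid. It was 7.35 and 7.68 CPM in the C24 control and 28.5 and 19.8 CPM in the C24 hybrid. Of the 85 higher loci, 50 fell in the C24 cross with no call in Col, 16 rose in Col and fell in C24, 11 rose in Col with no call in C24, and 8 fell in both, less so in Col. Their median level was 22.6 and 22.5 CPM in the Col control, 23.3 and 28.5 CPM in the Col hybrid, 36.8 and 39.0 CPM in the C24 control, and 15.2 and 16.1 CPM in the C24 hybrid. These levels describe how the test chose the loci and support nothing further.

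**Figure D1:**
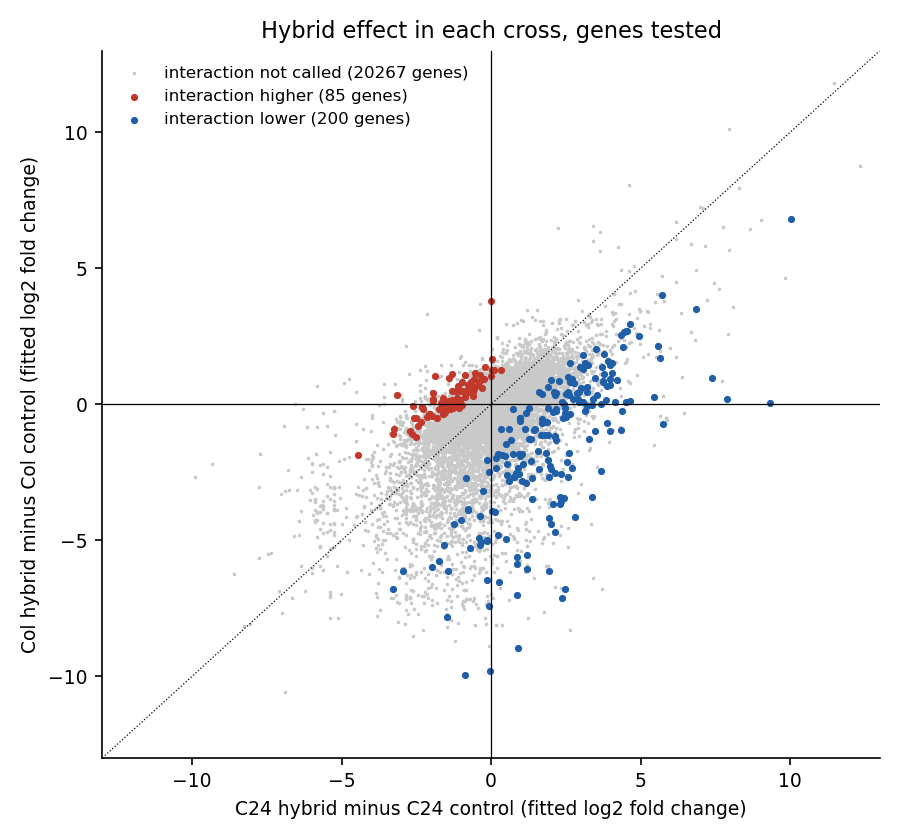
Each point is 1 of the 20552 genes tested, placed by its fitted log2 hybrid effect in the C24 cross (horizontal) and in the Col cross (vertical), with the dotted line at equal effects. The 200 loci called lower (blue) lie below the line, with a median interaction of -3.18, and the 85 called higher (red) lie above it, with a median of 1.47.

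Strongest among the loci that moved in opposite directions was AT4G32380, which encodes a pectin lyase superfamily protein; this family includes enzymes that cut pectin in cell walls. Its level was 93.3 and 105 CPM in the Col control, 0.367 CPM (6 reads) in Col hybrid 1 and 11 reads in Col hybrid 2, 81.9 and 84.1 CPM in the C24 control, and 588 and 277 CPM in the C24 hybrid. Both Col hybrid libraries lay below, and both C24 hybrid libraries above, every control library. The interaction was -9.50 ± 0.64 on the log2 scale (SE; edgeR adjusted p = 0.00058), from -7.12 in Col and 2.38 in C24. AT1G56233, which is annotated as a protein of unknown function, held 85.1 and 110 CPM in the Col control and 0.367 and 1.42 CPM in the Col hybrid. In the C24 control it held 42.3 and 37.3 CPM, and in the C24 hybrid 82.5 and 64.4 CPM. Here too no library of one group reached into the range of the other group of its cross, and the interaction was -7.89 ± 0.48 (edgeR adjusted p = 0.00044).

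AT5G15000 belongs to the ECA1 gametogenesis family of small secreted proteins, relatives of the egg cell proteins that activate sperm. It was at 42.4 and 45.6 CPM in the Col control and 2.76 and 6.03 CPM in the Col hybrid, while it went from 6.06 and 6.496 CPM in the C24 control to 74.3 and 55.6 CPM in the C24 hybrid. The Col hybrid thus lay just below the C24 control, and the order of the crosses was turned round between controls and hybrids (interaction -6.79 ± 0.41, edgeR adjusted p = 0.00044). AT3G10595, a homeodomain-like protein, was at 20.6 and 25.8 CPM in the Col control, 0.429 and 0.591 CPM in the Col hybrid, 12.5 and 10.8 CPM in the C24 control and 31.1 and 22.8 CPM in the C24 hybrid (interaction -6.76 ± 0.37). AT1G22420, a hydroxyproline-rich glycoprotein, had 114 reads in the Col control and 1 in the Col hybrid, so that the control level was 85.0 times that of the hybrid, with an exact 95% interval of 14.9 to 3385 that covers counting error only. In the C24 cross the same gene went from 4.42 and 6.37 CPM to 28.3 and 13.1 CPM. AT4G32380, AT1G56233, AT5G15000, AT3G10595 and AT1G22420 had no read in the A. arenosa control seeds, where 3 reads amounted to 1.41 and 1.39 CPM.

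Other loci among the 10 lowest interaction values dropped in the Col cross with no call in C24. GGT2, a gamma-glutamyl transpeptidase, one of the enzymes that break down glutathione, was at 113 and 107 CPM in the Col control and 2.08 and 2.48 CPM in the Col hybrid. In C24 its level was 226 and 133 CPM in the control and 446 and 202 CPM in the hybrid, ranges that overlap, and the interaction was -6.47 ± 0.60 (edgeR adjusted p = 0.0027). AT5G25410, of the DUF239 family, whose function is unknown, was at 36.4 and 45.9 CPM in the Col control and 0.551 and 0.236 CPM in the Col hybrid, with overlapping ranges in C24 (46.0 and 42.1 CPM against 77.4 and 28.1 CPM). AT2G19220, a Myb/SANT-like DNA-binding protein, had 279 reads in the Col control and 1 in the Col hybrid, a ratio of 208 with an exact 95% interval of 37.0 to 8242. The C24 levels of that gene overlapped, at 9.62 and 14.0 CPM in the control and 15.9 and 6.34 CPM in the hybrid.

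A further pair among the 10 lowest had no read in the C24 control. AT1G32280, of the superfamily of lipid-transfer proteins and 2S albumins, was at 39.6 and 46.7 CPM in the Col control and 36.7 and 53.6 CPM in the Col hybrid, so the Col ranges overlapped. In C24 it had no read in the control and 6.69 and 4.71 CPM in the hybrid, at least 28.9-fold higher with 3 reads per library as the floor. AT1G23960, of the DUF626 family, whose function is unknown, was at 69.3 and 72.0 CPM in the Col control and 39.2 and 46.7 CPM in the Col hybrid, and in C24 with no read in the control and at 0.489 and 0.453 CPM in the hybrid, at least 2.39-fold higher. With the floor in place of the fitted value, their interactions were -4.79 and -1.97. The call of AT1G23960 was lost without C24 hybrid 1 (edgeR adjusted p = 0.085) and with replicate 1 of both controls left out (0.0624). Reads were counted on the genome of a Col plant, so a low transcript level in C24 cannot be told apart from C24 reads that found no match. Both genes had reads in the A. arenosa control seeds, at 3.30 and 6.01 CPM for AT1G32280 and 3.77 and 3.24 CPM for AT1G23960. The counts do not separate maternal from paternal transcripts, so the source of the C24 hybrid reads was not tested. Over all 200 lower loci, 3 had no read in the C24 control and 4 none in the Col hybrid.

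**Figure D2:**
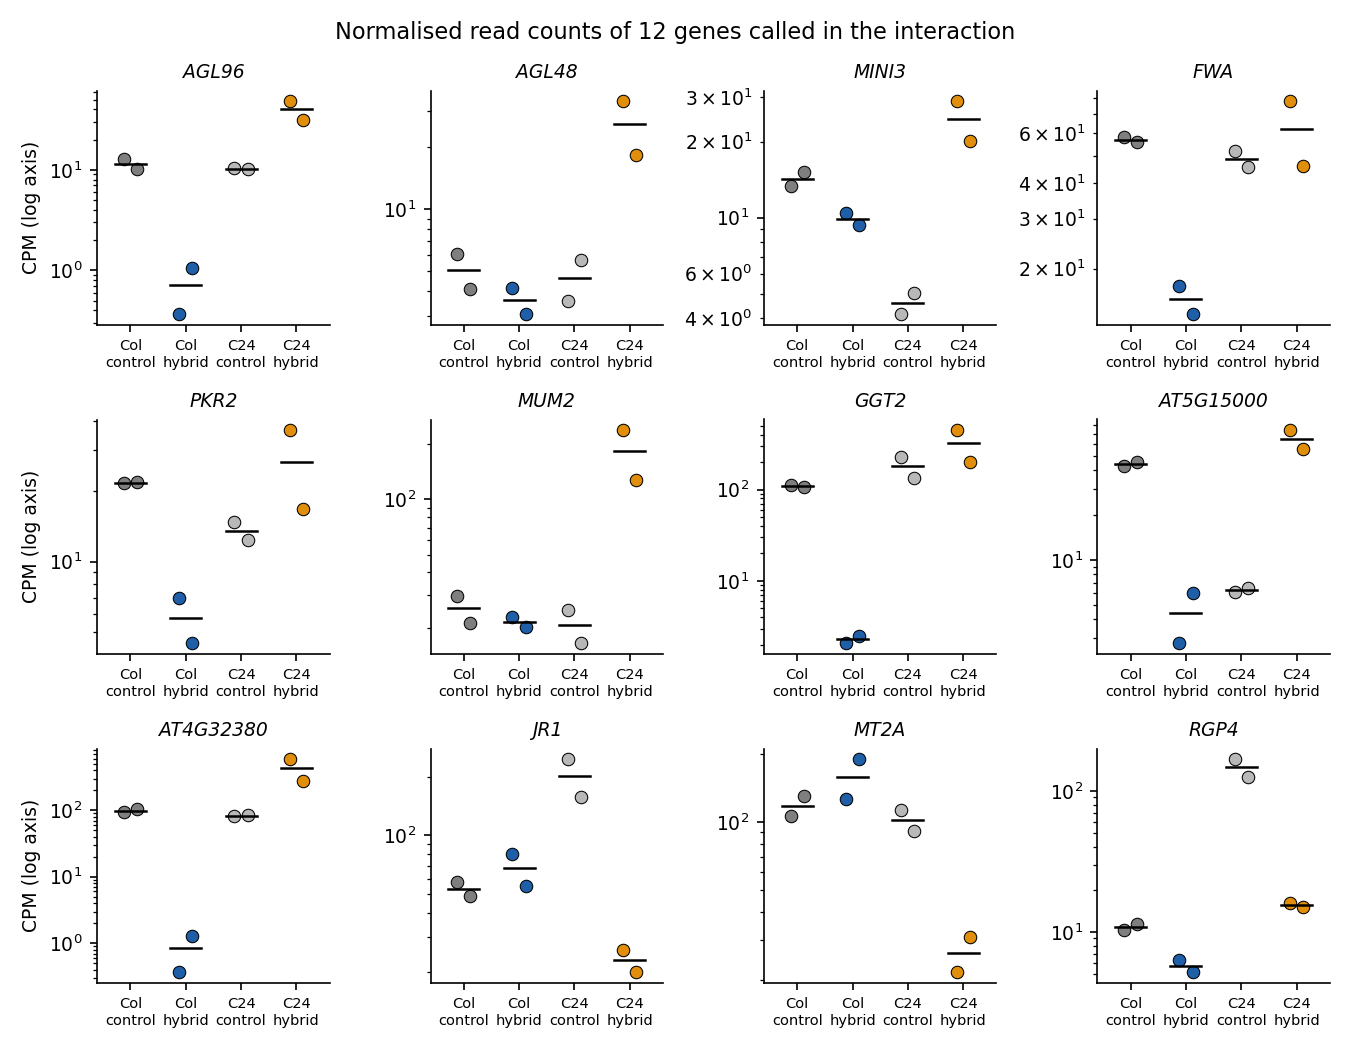
Scaled read counts (CPM, log axes that differ between panels) of 12 genes called in the interaction, with 1 point per library and a bar at the group mean. In the first 9 panels the Col hybrid lies below the C24 hybrid, by most for AT4G32380, and in the panels of JR1 and MT2A the C24 hybrid is the lowest group.

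Type I MADS-box factors, regulators of the female gametophyte and the endosperm, leaned to the lower side. Of 26 in the list, 18 could be tested, 2 were called lower (11.1%, beside 0.973% of all genes) and none higher. Their median interaction was -1.75, and 16 of 18 values were below 0, beside 10623 of 20552 over all genes. With RLE size factors, upper-quartile factors or a trend on exon length removed it was also 16 of 18. RLE and upper-quartile factors move all genes alike and by little, so they could hardly change this count. The median of all genes was -0.04 and -0.13 with them. Without replicate 2 of both controls, 16 of 21 values were below 0, with a median of -1.14. At an unadjusted p under 0.05, 9 were lower (50%, beside 6.61% of all genes) and none higher. In the crosses taken alone, 3 rose and 2 fell with the Col mother, and 8 rose and none fell with the C24 mother. Of all genes, 10.4% rose and 6.38% fell in Col, and 16.8% rose and 15% fell in C24. With replicate 1 of both controls left out 1 was called lower, and without their replicate 2, a setting chosen after seeing the data, there were 4. There were also 4 without C24 control 1 and 7 without C24 hybrid 2, and without C24 hybrid 1 the median was -0.92.

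AGL96 was at 12.7 and 10.2 CPM in the Col control, 0.367 and 1.06 CPM in the Col hybrid, 10.4 and 10.2 CPM in the C24 control, and 48.2 and 31.4 CPM in the C24 hybrid. The controls of both crosses were thus alike, while the hybrids lay below and above them with no overlap, and the interaction was -6.14 ± 0.49 (edgeR adjusted p = 0.0014). AGL96 also stood apart in libraries that the interaction did not use: in whole hybrid siliques it was at 0 and 0.196 CPM with the Col mother and at 7.42 and 4.21 CPM with the C24 mother (edgeR adjusted p = 0.029). AGL48 was at 6.02 and 4.07 CPM in the Col control and 4.104 and 3.07 CPM in the Col hybrid, ranges that overlap. In the C24 cross it rose from 3.56 and 5.64 CPM to 33.7 and 18.5 CPM (interaction -2.96 ± 0.52, edgeR adjusted p = 0.033). The AGL48 call was lost with replicate 1 of both controls left out (-2.36, adjusted p = 0.114).

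Better known members did not pass with all libraries. With 1 library left out, AGL62, AGL36 and PHE1 were called lower without C24 hybrid 2. AGL36 was also called without Col hybrid 2 and without C24 control 1. AGL62, which delays endosperm cell formation, was at 12.8 and 18.0 CPM in the Col control and 29.0 and 46.2 CPM in the Col hybrid, and it was at 7.91 and 9.78 CPM in the C24 control and 88.8 and 43.3 CPM in the C24 hybrid. It rose in both crosses, and the difference of -1.63 ± 0.51 had an adjusted p of 0.18 by edgeR. AGL36, a maternally expressed imprinted gene, was at 18.7 and 24.5 CPM in the Col control, 67.9 and 109 CPM in the Col hybrid, 3.49 and 2.89 CPM in the C24 control and 98.5 and 34.7 CPM in the C24 hybrid. Its rise was also called in both crosses, and DESeq2 called its interaction (adjusted p = 0.0068) while edgeR did not (adjusted p = 0.14). Of its exon words, 32.9% occur elsewhere in the genome, so its reads may be shared with near copies. PHE1, a paternally expressed imprinted factor, had an interaction of -1.61 ± 0.77 with an edgeR adjusted p of 0.35, and its hybrid ranges overlapped, at 76.4 and 141 CPM in Col and 158 and 44.1 CPM in C24.

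Among 21 imprinted and Polycomb genes, all tested, 2 were called lower (9.52%, beside 0.973% of all genes) and none higher. Their median was -0.31, with 14 values below 0. The median was between -0.10 (without C24 hybrid 1) and -0.39 (without C24 hybrid 2) with 1 library left out, and it was -0.17 and -0.20 without Col control 1 and 2, -0.16 without Col hybrid 2 and -0.13 without C24 control 1. In addition, 4 members were called lower without C24 hybrid 2, YUC10 and HDG8 being added. FWA, a maternally expressed homeobox gene of the endosperm, was at 58.0 and 55.8 CPM in the Col control, 17.3 and 13.8 CPM in the Col hybrid, 51.7 and 45.7 CPM in the C24 control, and 77.9 and 46.2 CPM in the C24 hybrid. It fell in the Col cross with no overlap and had no call in C24, where the ranges overlapped (interaction -2.204 ± 0.33, edgeR adjusted p = 0.020). PKR2, a paternally expressed chromatin remodelling factor, was at 21.6 and 22.0 CPM in the Col control, 6.98 and 4.49 CPM in the Col hybrid, 14.8 and 12.4 CPM in the C24 control and 36.5 and 16.8 CPM in the C24 hybrid. Its interaction was -2.86 ± 0.49 (edgeR adjusted p = 0.031), and with replicate 1 of both controls left out the adjusted p was 0.0505. FWA overlaps a gene on the other strand, and the counts cannot separate the strands.

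Of the seed Polycomb complex, FIS2 and its partner MEA were called in the same direction in both crosses. FIS2 fell, from 15.4 and 8.86 CPM to 0.980 and 0.236 CPM in Col and from 28.7 and 18.8 CPM to 2.201 and 1.90 CPM in C24, with an interaction of -0.57 ± 0.67. MEA, the catalytic subunit, rose, from 9.41 and 7.04 CPM to 19.7 and 22.0 CPM in Col and from 5.73 and 5.51 CPM to 20.14 and 12.4 CPM in C24, with an interaction of -0.20 ± 0.35. FIE and MSI1, further subunits, had interactions of -0.15 ± 0.20 and 0.09 ± 0.17; FIE fell in Col with no call in C24, and MSI1 had no call in either cross. YUC10, a paternally expressed enzyme of auxin synthesis, also rose in both, and its interaction of -1.98 ± 0.68 did not pass (edgeR adjusted p = 0.21). These intervals do not show that the effects were equal.

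Of 15 tested genes of endosperm growth and cell formation (16 listed), 1 was called lower (6.67%, beside 0.973% of all genes) and none higher. Their median was -0.44. With 1 library left out 1 to 3 were called lower, 3 without C24 control 1 or C24 hybrid 2 and 2 without any of the others except Col hybrid 1, and the median ran from -0.17 (without Col control 1 or C24 hybrid 1) to -0.83 (without C24 hybrid 2), with -0.68 without Col hybrid 1 and -0.73 without C24 control 2. MINI3, a WRKY factor that promotes early endosperm growth, was at 13.3 and 15.1 CPM in the Col control, 10.5 and 9.33 CPM in the Col hybrid, 4.15 and 5.05 CPM in the C24 control, and 28.9 and 20.2 CPM in the C24 hybrid. The order of the mothers was turned round: the Col control lay above the C24 control and the Col hybrid below the C24 hybrid, with no overlap. The interaction was -2.93 ± 0.30 (edgeR adjusted p = 0.0044), and it was lost only in the fit over all 7 groups (adjusted p = 0.0606). ALE1, a subtilisin-like protease of the endosperm needed for the embryo surface, came close: it was at 8.04 and 7.64 CPM in the Col control, 0.367 and 1.18 CPM in the Col hybrid, 12.5 and 6.43 CPM in the C24 control and 21.5 and 8.60 CPM in the C24 hybrid. Its interaction was -4.20 ± 0.82, with an adjusted p of 0.051 by edgeR and 0.00040 by DESeq2. CKX2, which breaks down cytokinin downstream of MINI3, had -1.74 ± 0.42 (edgeR adjusted p = 0.094, DESeq2 adjusted p = 0.0018). ALE1 was the member added in 7 of the leave-one-out fits, and CKX2 in 2. Of the 11 embryo regulators tested (16 listed) none was called by edgeR or DESeq2, with 1 higher and 2 lower at an unadjusted p under 0.05. WOX9, an embryo patterning factor, had the smallest p (interaction -3.45 ± 0.97, edgeR adjusted p = 0.14); it was called without Col control 2 (0.0299), together with SSP, and without C24 hybrid 2 (0.0388), while LEC1 was called higher without C24 control 2.

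The seed coat is maternal tissue, and its list leaned the other way: 21 of 28 values were above 0 and the median was 0.23, against -0.02 over all genes. By edgeR 1 member was called lower (3.57%, beside 0.973% of all genes) and none higher. At an unadjusted p under 0.05, 3 were higher (10.7%) and 2 lower (7.14%), beside 9.26% and 6.61% of all genes. The median ran from 0.12 without C24 hybrid 1 to 0.48 without C24 hybrid 2, and leaving out Col control 2, Col hybrid 2 or C24 control 1 gave 0.45, 0.34 and 0.35. The called member was MUM2, a beta-galactosidase that modifies seed coat mucilage. Its level was 29.8 and 21.3 CPM in the Col control, 22.8 and 20.2 CPM in the Col hybrid, 24.8 and 16.5 CPM in the C24 control and 238 and 127 CPM in the C24 hybrid. The other 6 libraries lay between 16.5 and 29.8 CPM, and both C24 hybrid libraries lay above them (interaction -3.39 ± 0.46, edgeR adjusted p = 0.015). TT19, a glutathione S-transferase needed to store flavonoid pigments, was at 579 and 453 CPM in the Col control, 354 and 562 CPM in the Col hybrid, 1206 and 1072 CPM in the C24 control and 301 and 501 CPM in the C24 hybrid; its interaction of 1.33 ± 0.40 passed with DESeq2 (adjusted p = 0.018) and not with edgeR (adjusted p = 0.16), except without Col hybrid 1 or C24 hybrid 2, when edgeR called it too. BAN, which makes tannin precursors, fell in both crosses, with an interaction of 0.62 ± 0.31. Summed seed coat markers were 3372 and 3563 CPM in the Col control, 1669 and 2140 CPM in the Col hybrid, 4412 and 5409 CPM in the C24 control and 1643 and 2082 CPM in the C24 hybrid.

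**Figure D3:**
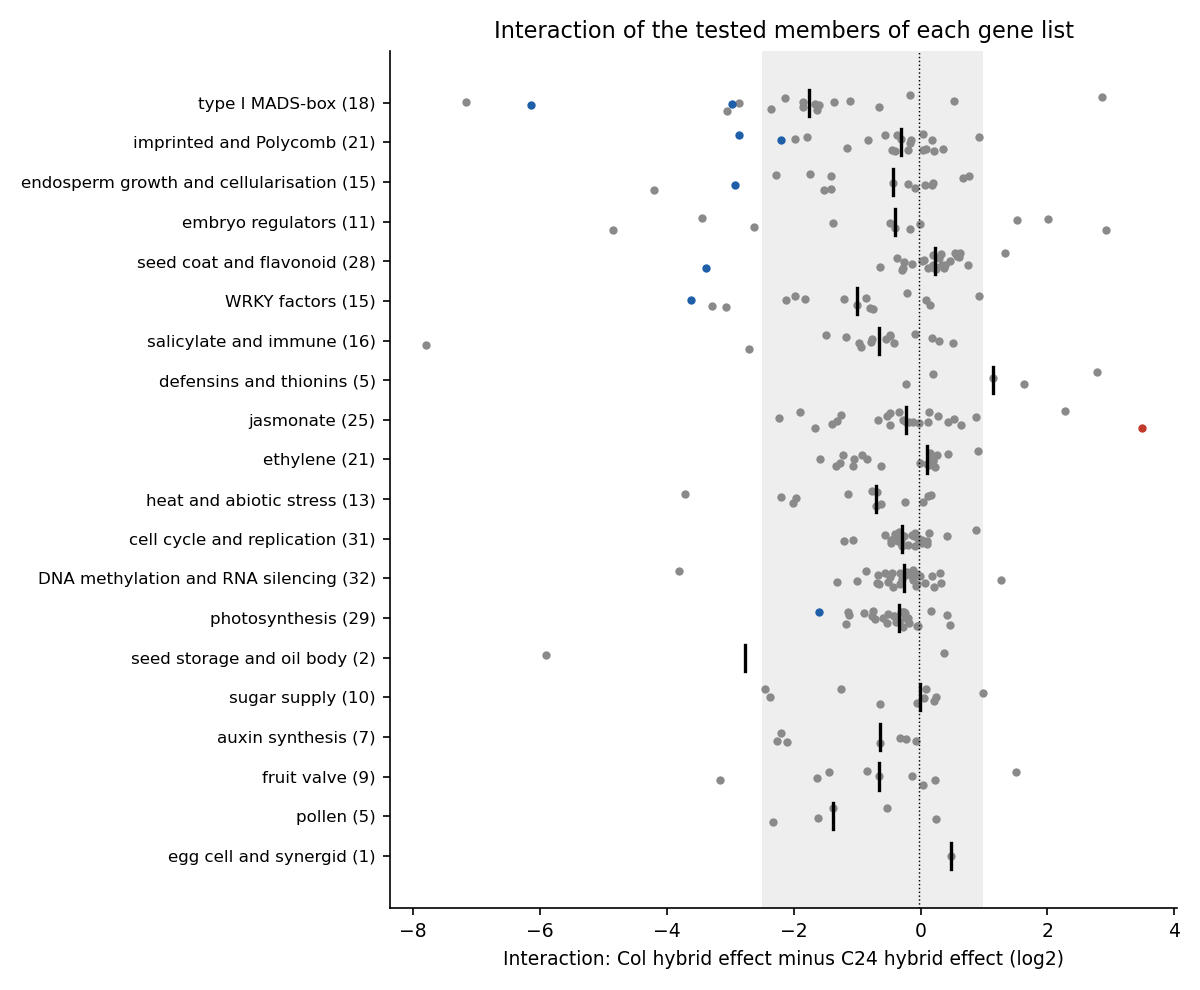
Interaction values (log2) of the tested members of each of 20 gene lists, with the number tested in brackets, a black bar at the list median, the median of all genes as a dotted line and the middle 90% of all genes shaded. Blue points were called lower and the red point, JR1, was called higher; the type I MADS-box list has its median at -1.75 and the seed coat list at 0.23.

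The highest interaction among the 77 higher loci open to naming was that of JR1, a jasmonate-inducible lectin-like protein. It was at 57.7 and 48.7 CPM in the Col control, 80.4 and 54.9 CPM in the Col hybrid, 246 and 157 CPM in the C24 control and 25.8 and 19.9 CPM in the C24 hybrid. The Col ranges overlapped, while in C24 the hybrid fell below every other library (interaction 3.49 ± 0.38, edgeR adjusted p = 0.0054). JR1 was called under all 20 alternatives tried, and it overlaps a gene on the other strand. MT2A, a metal-binding metallothionein, was at 106 and 130 CPM in the Col control, 127 and 189 CPM in the Col hybrid, 113 and 91.0 CPM in the C24 control and 21.7 and 31.1 CPM in the C24 hybrid. It too had overlapping ranges in Col and a fall in C24 (interaction 2.37 ± 0.35, edgeR adjusted p = 0.018), and with replicate 1 of both controls left out the adjusted p was 0.069.

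In several higher loci the C24 control was the group that stood out. RGP4, of a family of sugar-nucleotide mutases used in wall synthesis, was at 10.4 and 11.5 CPM in the Col control, 6.31 and 5.20 CPM in the Col hybrid, 168 and 126 CPM in the C24 control and 16.1 and 15.1 CPM in the C24 hybrid. AT5G59845, a gibberellin-regulated protein, was at 55.4 and 65.4 CPM in the Col control, 11.9 and 22.1 CPM in the Col hybrid, 446 and 428 CPM in the C24 control and 19.7 and 20.4 CPM in the C24 hybrid. Both genes fell in both crosses, from a higher level in the C24 control, and more so in C24 (interactions 2.33 ± 0.26 and 2.59 ± 0.35). AT5G09570, a Cox19-like protein, was at 2.98 and 3.52 CPM in the Col control, 4.29 and 9.80 CPM in the Col hybrid, 73.2 and 54.4 CPM in the C24 control and 17.36 and 17.5 CPM in the C24 hybrid (interaction 2.91 ± 0.47). The pseudogene AT2G24110 had 267 and 238 reads in the C24 control, 37 and 26 in the C24 hybrid, 14 and 10 in the Col control and 10 and 7 in the Col hybrid (interaction 2.57 ± 0.45). FTRA1, a subunit of the plastid ferredoxin-thioredoxin reductase, was at 5.84 and 6.37 CPM in the Col control, 6.43 and 6.97 CPM in the Col hybrid, 13.4 and 12.8 CPM in the C24 control and 3.34 and 3.44 CPM in the C24 hybrid (interaction 2.08 ± 0.26). The others of the 10 highest were AT5G02502, an oligosaccharyltransferase, AT4G01897, annotated as a dihydroorotate dehydrogenase, and AT5G20165, a kish-A-like protein, with interactions between 2.12 and 2.23. Of these 10 genes, those lost with replicate 1 of both controls left out were AT5G09570, AT2G24110, MT2A, AT5G02502, AT5G20165 and FTRA1, with edgeR adjusted p from 0.0588 to 0.157. AT5G02502 also lost it without Col control 1 (0.0507) and without C24 hybrid 1 (0.060).

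Of the 16 loci that rose in Col and fell in C24, 13 were open to naming, and the 5 highest are described here. The median interaction of the 16 was 1.47, against -4.66 for the 47 that fell in Col and rose in C24. AT1G23205, an inhibitor of invertase or pectin methylesterase, was at 32.5 and 45.02 CPM in the Col control, 72.7 and 92.3 CPM in the Col hybrid, 76.3 and 60.7 CPM in the C24 control and 30.7 and 44.5 CPM in the C24 hybrid, so each hybrid overlapped with the control of the other mother (interaction 1.95 ± 0.34, edgeR adjusted p = 0.031). AT3G44100, an MD-2-related lipid recognition protein, was at 78.8 and 66.0 CPM in the Col control, 148 and 174 CPM in the Col hybrid, 112 and 108 CPM in the C24 control and 65.1 and 85.3 CPM in the C24 hybrid (interaction 1.69 ± 0.24). AT5G55896, AT2G43540 (both uncharacterised) and MRPL11, a mitochondrial ribosomal protein, had interactions of 1.80, 1.51 and 1.49. All 5 lost the call with replicate 1 of both controls left out, with adjusted p from 0.0588 to 0.171, and in the fit over all 7 groups. AT1G23205, AT2G43540 and MRPL11 also lost it without Col control 1 (adjusted p 0.0511, 0.0871 and 0.0716). Without C24 hybrid 1 it was lost for all but AT3G44100 (0.0874 to 0.0944), and without Col hybrid 2 or C24 control 2 for AT2G43540 (0.0817 and 0.0947) and MRPL11 (0.0966 and 0.0597).

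Of 15 tested WRKY factors, regulators of defence genes, 1 was called lower (6.67%, beside 0.973% of all genes) and none higher, and the median was -1.003. At an unadjusted p under 0.05, 6 were lower (40%) and 1 higher (6.67%), beside 6.61% and 9.26% of all genes. WRKY33, needed for defence against fungi, was at 4.29 and 9.77 CPM in the Col control, 2.08 and 2.01 CPM in the Col hybrid, 0.659 and 0.525 CPM in the C24 control and 1.87 and 2.44 CPM in the C24 hybrid. It fell in Col and rose in C24 to a common hybrid level (interaction -3.62 ± 0.67, edgeR adjusted p = 0.043), and the call was lost when Col control 2 (adjusted p = 0.0728), Col hybrid 1 (0.0535) or replicate 2 of both controls (0.104) was left out. Without C24 control 1, WRKY40 was called lower as well. The list median was -1.66 without Col hybrid 1, -1.65 without C24 hybrid 2, and -1.53 and -1.55 without C24 control 1 and 2. WRKY33 overlaps a gene on the other strand. None of 16 salicylate and immune genes was called by edgeR or DESeq2. At an unadjusted p under 0.05, 1 was lower (6.25%, near the 6.61% of all genes) and none higher. None was called by either tool among 5 defensins and thionins (1 higher unadjusted, 20%), 21 ethylene genes (2 lower, 9.52%) and 13 heat and abiotic stress genes (1 lower, 7.69%). Single libraries altered this: PDF2.2 was called higher without C24 control 2 (edgeR adjusted p = 2.18e-06) and PR4 without Col hybrid 1, ACO1 was called higher without C24 hybrid 1, and COR47 and RD29A were called lower without Col hybrid 1 and without C24 control 2. Of 25 jasmonate genes, JR1 was the 1 called higher (4%, beside 0.414% of all genes) and none was lower by edgeR. Unadjusted, 4 were higher (16%) and 1 lower (4%). DESeq2 also called LOX4, a lipoxygenase of jasmonate synthesis, lower (adjusted p = 0.030, edgeR 0.098), and edgeR did so without Col control 1, Col hybrid 2, C24 control 1 or C24 hybrid 2; without Col control 1 JMT was called higher as well. Its level was 9.53 and 21.7 CPM in the Col control, 6.49 and 8.86 CPM in the Col hybrid, 7.71 and 4.86 CPM in the C24 control and 14.3 CPM in both C24 hybrid libraries.

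Of 29 photosynthesis genes, 14 rose in Col and 23 in C24 and none fell. Of all genes, 10.4% and 16.8% rose and 6.38% and 15% fell. The interaction was below 0 for 26 of 29, with a median of -0.34, and 9 were lower and 1 higher at an unadjusted p under 0.05, against 1 lower (3.45%) and none higher after adjustment. The median was -0.07 without replicate 2 of both controls, -0.09 without C24 hybrid 1 and -0.22 without Col control 2. The called gene was LHCB2.1, of the light-harvesting antenna, at 45.6 and 39.9 CPM in the Col control, 106 and 117 CPM in the Col hybrid, 14.0 and 10.8 CPM in the C24 control and 110 and 85.6 CPM in the C24 hybrid. The hybrids had overlapping levels and the controls did not (interaction -1.60 ± 0.26, edgeR adjusted p = 0.024), and 34.4% of its exon words occur elsewhere. Its call was lost without Col hybrid 2 (adjusted p = 0.0587), C24 control 2 (0.112) or C24 hybrid 1 (0.0862), and with replicate 1 of both controls left out (0.0588), and RBCS2B was called with it without Col control 1. DESeq2 also called RCA, the activase of Rubisco, and RBCS2B, a small subunit of Rubisco, lower, with its own estimates of -0.89 ± 0.25 and -1.17 ± 0.35; edgeR gave adjusted p of 0.15 and 0.093.

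None of 31 cell cycle and replication genes and none of 32 DNA methylation and RNA silencing genes was called by edgeR or DESeq2. At an unadjusted p under 0.05, 5 and 7 were lower (16.1% and 21.9%, beside 6.61% of all genes). In the same way 1 and 1 were higher (3.226% and 3.125%, beside 9.26%). The medians were -0.29 and -0.27. Over all genes, no locus was called with an interaction smaller than 0.917 in size (log2). A list without a call thus does not show that smaller differences were absent. The silencing median moved to 0.01 with the length trend removed, and the cell cycle median to -0.19. With 1 library left out they ran from -0.34 to -0.08 and from -0.31 to -0.04, nearest to 0 without Col hybrid 2 and without Col control 2; both were also over 1.5 times smaller without C24 control 1 and without C24 hybrid 1, the silencing median without Col control 1, and the cell cycle median without Col hybrid 2. DML3 was called lower without Col control 2, and DML3 and DCL3 without C24 hybrid 2. VIM1, a reader of methylated DNA that works with MET1, had the smallest p of the silencing list: it was at 20.6 and 19.2 CPM in the Col control, 24.6 and 23.0 CPM in the Col hybrid, 13.8 CPM in both C24 control libraries and 28.1 and 32.3 CPM in the C24 hybrid (interaction -0.86 ± 0.19, edgeR adjusted p = 0.071, and 0.045 over genes of at least 5 CPM). MET1, the maintenance DNA methyltransferase, rose in both crosses and had -0.67 ± 0.20 (edgeR adjusted p = 0.16). None of 7 auxin synthesis genes was called by either tool, with 3 lower unadjusted (42.9%). All 7 values were below 0, with a median of -0.63, but without Col control 1 they were 5 of 7, with a median of -0.11, and with any other library left out 9 genes passed the filter and the median lay between -2.41 and -1.39. TAR1, an enzyme of auxin synthesis, was called lower without C24 control 1 (edgeR adjusted p = 0.0443) and without C24 hybrid 2 (0.0481). Among 10 sugar supply genes edgeR called none, with 2 lower unadjusted (20%), and DESeq2 called SUC2, the sucrose carrier of the phloem, lower (adjusted p = 0.020, edgeR 0.091). EdgeR also called SUC2 lower with a replicate block (0.0348), with no filter, and in 5 of 8 leave-one-out fits (leaving out Col control 2 gave 0.00627, Col hybrid 1 0.029, C24 control 1 and 2 0.0263 and 0.0177, and C24 hybrid 2 0.00961). CWINV4 and SWEET11 were called lower with it without Col control 2. The marker lists of fruit valve (9 tested, 1 lower unadjusted), pollen (5, none) and egg cell and synergid (1, none) and the seed storage list (2, 1 lower unadjusted) held no call by edgeR or DESeq2, nor by edgeR with any 1 library left out. Their medians moved by more than 1.5 times with single libraries and turned sign in places: that of the 5 pollen genes was -1.38, and 0.59 without Col control 1, and that of fruit valve was -0.66, and 0.03 without it.

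Whole siliques, the fruits with their seeds, gave libraries of both hybrid crosses that the interaction did not use. Only hybrid siliques were analysed here, so they show whether the hybrids differed between mothers, which 560 of 20103 genes did (2.79%), 340 higher (1.69%) and 220 lower (1.09%) with the Col mother. Of the 85 interaction loci called higher, 3 were also higher in Col siliques and 1, AT2G24110, was lower. Of the 171 lower loci tested there, 4 were lower and 3 higher. The shares in the same direction were 3.53% of the higher and 2.34% of the lower loci, beside 1.64% and 0.951% of all genes tested in both. AT5G55896 was higher in Col siliques, at 36.7 and 29.8 CPM against 2.97 and 3.32 CPM (edgeR adjusted p = 0.0026), as in the hybrid seeds, at 38.5 and 36.1 CPM against 1.55 and 2.35 CPM. Its control seeds already differed in that direction, at 22.5 and 19.5 CPM in Col and 3.76 and 3.87 CPM in C24. The silique difference thus does not bear on its interaction alone. AT1G23960 was at 39.4 and 49.8 CPM in Col siliques and at 0.0742 and 0 CPM in C24 siliques. It was thus higher with the Col mother, as in the control seeds, although its interaction was called lower.

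Transcript length moved with the interaction. In bins of equal gene number, the median interaction went from 0.21 at exon lengths of 85 to 895 bases down to -0.30 at 3326 to 16614 bases. Most of this gradient lay in the C24 effect, whose medians ran from -0.31 to 0.33, against -0.06 to 0.06 for Col. Of the 85 higher loci, 52 were in the 2 shortest bins, and their median length was 1049 bases, against 1273 for the lower loci and 1779 for all genes. With the trend of log counts on length removed in each library, an alternative chosen after seeing the data, 104 were called higher and 219 lower, and 267 of the 284 called loci with a length kept their call.

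**Figure D4:**
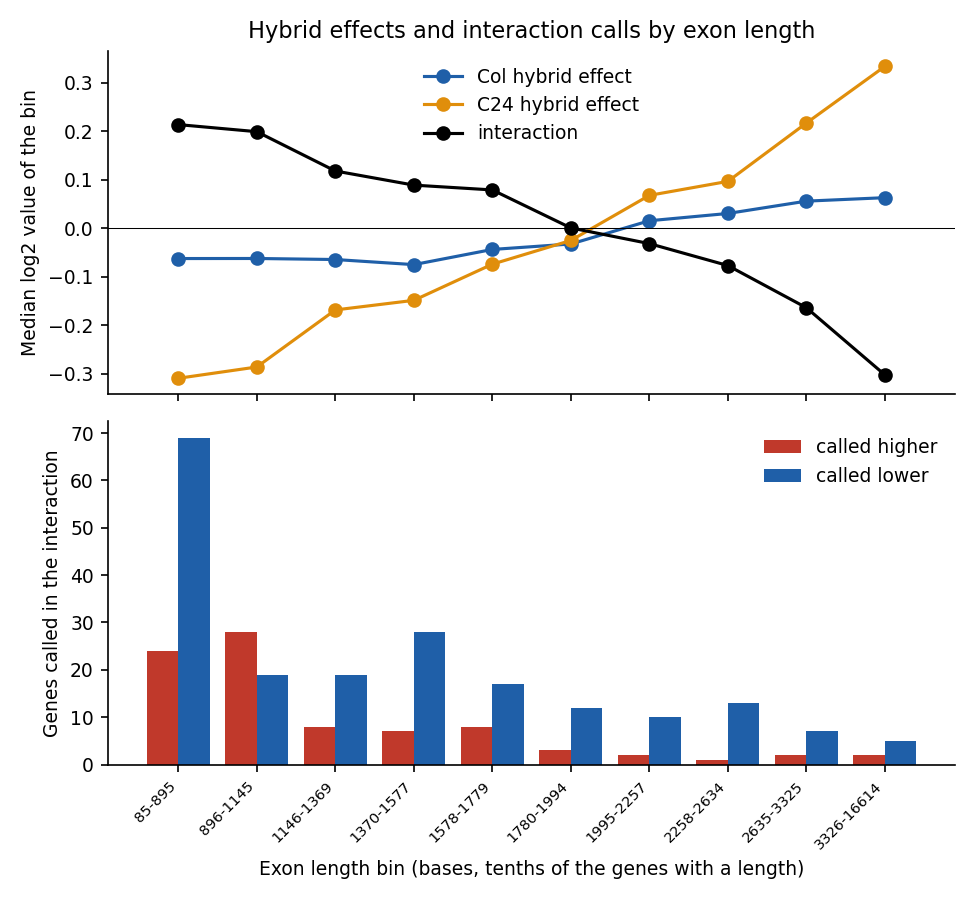
Upper panel: median log2 hybrid effect in each cross and median interaction in 10 bins of exon length (bases). Lower panel: genes called higher (red) and lower (blue) per bin; the C24 medians climb from -0.31 to 0.33 with length, and the shortest bin holds 69 of the lower and 24 of the higher loci.

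The number of calls depended on single libraries. Leaving out 1 library gave 457 calls without Col hybrid 1, 445 without C24 control 1 and 542 without C24 hybrid 2, and between 190 and 422 without any of the others. Higher loci were the less stable ones: 36 without Col control 1, 128 without Col control 2, 226 without Col hybrid 1, 44 without Col hybrid 2, 30 without C24 hybrid 1 and 141 without C24 hybrid 2. Lower loci came to 323 without C24 control 1 and 401 without C24 hybrid 2. With replicate 1 of both controls left out, the libraries with reads at more loci, 11 higher and 142 lower loci were called, and 133 of the 285 were among them. Of the 285 loci, 161 were called in each of the 8 leave-one-out fits, 142 of them lower and 19 higher. DESeq2 called 614 loci (286 higher and 328 lower), of which 273 were among the 285.

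**Figure D5:**
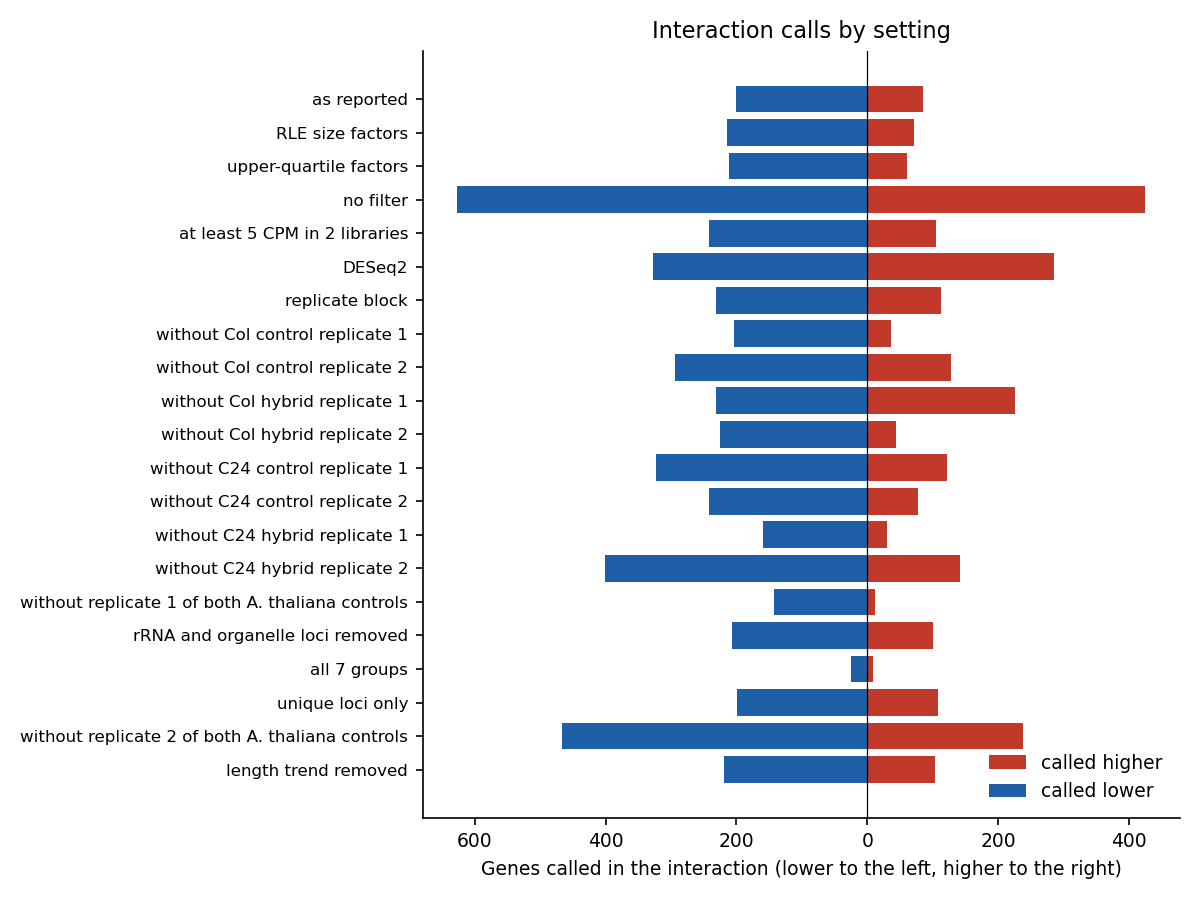
Loci called lower (blue, to the left) and higher (red, to the right) in the interaction under each setting. The bar as reported holds 200 and 85; calls are most numerous with no filter on low counts (627 and 425) and fewest in the fit over all 7 groups (25 and 8).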

How the data were processed

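The values for 14 libraries are raw counts of reads per locus, as whole numbers, deposited by the authors. Per the file header, each A. thaliana control column is a sum of 2 sample records, 1 of which is titled single (not explained in the sources used here), and each sum was used as 1 library. Poly-A RNA was copied with random primers; no strand marking is stated in the labels' protocols. BWA and TAIR10 were used, per the submitters' processing notes; how reads were counted, whether strand was used and what became of reads with several matches are not given in the sources used here. A. arenosa reads were thus counted on the A. thaliana genome. The counts of transposable elements, also deposited by the authors, served for library shares only.

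Counts were tested with edgeR 4.0.16 (limma 3.58.1, R 4.3.3): TMM scaling, filterByExpr with the groups, 1 quasi-likelihood fit over the 4 seed groups, and Benjamini-Hochberg adjustment over the 20552 genes tested, with a threshold of 0.05. SE is the absolute log2 value divided by the square root of F. The hybrid siliques had a fit of their own. DESeq2 1.42.0 was an alternative, with other scalings, filters, library sets, a replicate block, a fit over all 7 groups and loci with unique exon words only. Replicates differed by more than sampling noise, and none was taken as a duplicate. Scripts were tested on simulated data.

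Members and lists (420 genes in 20 lists, 411 after those whose symbol did not match the annotation were dropped) were chosen with earlier results of these data known. Gene names were looked up by locus in the TAIR10.1 annotation, with 32835 matches; no coordinates or sequences are given, since its identity with the authors' build was not checked. Loci were named from those called that are nuclear, not ribosomal RNA, with at most 5% of 31-base exon words elsewhere and at least 10 CPM in a group: the 10 highest and 10 lowest interactions, the 5 highest and 5 lowest called in opposite directions, and, with no such limits, up to 2 called members a list and direction, or the uncalled member of smallest p. Further list members were named after their values were seen.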

Additional observations from a re-analysis of the deposited data

Results flagged for a closer look

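Each gene named as called is also listed here, because its hybrid effect differed between mothers by edgeR's test of the difference. On the higher side the interactions (log2) were 3.49 for JR1, 2.91 for AT5G09570, 2.59 for AT5G59845, 2.57 for AT2G24110, 2.37 for MT2A, 2.33 for RGP4, 2.23 for AT5G02502, 2.17 for AT4G01897, 2.12 for AT5G20165 and 2.08 for FTRA1. Among loci called in opposite directions they were 1.95 for AT1G23205, 1.80 for AT5G55896, 1.69 for AT3G44100, 1.51 for AT2G43540 and 1.49 for MRPL11. On the lower side they were -9.50 for AT4G32380, -9.26 for AT1G32280, -8.07 for AT1G22420, -7.89 for AT1G56233, -7.32 for AT2G19220, -6.79 for AT5G15000, -6.78 for AT5G25410, -6.76 for AT3G10595, -6.47 for GGT2 and -6.47 for AT1G23960. The values of AT1G32280, AT1G22420, AT2G19220 and AT1G23960 rest on groups with 0 or 1 read and depend on the prior count of the fit. List members called were AGL96 (-6.14), AGL48 (-2.96), FWA (-2.204), PKR2 (-2.86), MINI3 (-2.93), MUM2 (-3.39), WRKY33 (-3.62) and LHCB2.1 (-1.60).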

How the results depend on the processing

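With 2 libraries a group, calls rest on a spread shared over genes. The floor of 3 reads per library for groups without a read entered only the fold bounds and the interactions given at the floor, not the calls. Interaction calls were 1052 (425 higher, 627 lower) with no filter on low counts, 614 (286, 328) with DESeq2, 33 (8, 25) in the fit over all 7 groups and 153 (11 higher) with replicate 1 of both controls left out. They were 704 (238, 466) without replicate 2 of both controls, an alternative chosen after seeing the data, as was the length correction. Leaving out 1 library gave 190 to 542 calls, 30 to 226 higher and 160 to 401 lower. Other scalings, a minimum of 5 CPM, unique loci and removal of ribosomal RNA and organelle loci gave 271 to 347. For the Col effect (3454) the count was 1275 to 3370 with 1 library left out, 1056 when all groups were fitted together, 1357 and 6508 without replicate 1 and 2 of both controls. For the C24 effect (6536) it was 2736 to 6460, 4118 without replicate 1 of both controls, and 3931 when all groups were fitted together. For the siliques (560) it was 195 to 691 with 1 library left out, and 986 with DESeq2. With a replicate block, interaction calls were 344 and silique calls 154; deviations of same-numbered seed libraries correlated at 0.69 between the controls and at 0.383 and 0.353 between the C24 hybrid and the Col and C24 control, but at -0.10 to -0.07 between the Col hybrid and the other groups, so the numbers were not taken as a pairing. The fit over all groups ended the call of 24 of the 33 named genes, and that without replicate 1 of both controls of 15. VGD1, not called (-1.38), ranged from -2.02 to 0.48 with 1 library left out, the latter without Col control 1. The causes were not tested.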

Other observations

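The annotation of the 285 loci was read after they were called, so the following groups are descriptions with no test. The cysteine-rich group joined LCR, SCRL and defensin-like genes with genes of a family annotated only as of unknown function. LCR, SCRL and defensin-like genes encode small secreted peptides, relatives of antimicrobial defensins and of peptides that act between pollen and pistil. The group made up 19 of the 200 lower loci, from 106 tested (17.9%, beside 0.973% of all genes), and none was higher. Among the 19, AT1G56233, AT5G55131 and AT1G54445 are of the family of unknown function. LCR35 was at 47.0 and 47.9 CPM in the Col control, 0.245 and 0.118 CPM in the Col hybrid, 44.6 and 35.7 CPM in the C24 control and 15.7 and 13.1 CPM in the C24 hybrid. It fell in both crosses with no overlap, and the interaction was -6.35 ± 0.37. Lower calls were also made for 9 of 41 subtilases (22.0%), which are serine proteases, 9 of 35 DUF239 genes (25.7%), 4 of 24 expansins (16.7%), which loosen cell walls, 4 of 16 ECA1 family genes (25%) and 3 of 16 glycosyl hydrolase 9 genes, cellulases (18.8%). Of these called genes, 4 subtilases, 4 DUF239 genes, 2 expansins, 1 ECA1 gene and 3 glycosyl hydrolase 9 genes have over 5% of exon words elsewhere. Their reads may be shared with near copies. EXPA21 was at 564 and 506 CPM in the Col control, 15.4 and 23.4 CPM in the Col hybrid, 310 and 271 CPM in the C24 control and 429 and 247 CPM in the C24 hybrid. The Col ranges did not overlap and the C24 ranges did (interaction -5.02 ± 0.41). On the higher side stood 8 of 321 genes annotated as ribosomal proteins (2.49%) and 6 of 203 mitochondrial ones (2.96%), beside 0.414% of all genes. Of the ribosomal protein genes 1 was lower, AT2G40010, an L10 family member at -6.40 ± 0.77; its mean level was 3.72 CPM in the Col control, 7.41 CPM in the Col hybrid, 0.033 CPM in the C24 control, where it had 1 read, and 6.98 CPM in the C24 hybrid. Median exon lengths were 1016 bases in the ribosomal and 1391 in the mitochondrial group, and 403 in the cysteine-rich and 357 in the ECA1 group. In the shortest length bin, 69 of 2045 genes were called lower and 24 higher. The part of length in the counts of these groups was not tested.

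Some lower loci were neighbours. Among 19456 pairs of adjacent tested protein-coding genes, both were called lower in 17 and both higher in none, and 28 loci lay in 11 such runs (14.2% of the 197 protein-coding lower loci). On chromosome 4, LCR21, LCR22 and LCR23 had interactions of -3.18, -4.03 and -4.58. GH9B9, GH9B10 and GH9B11 on chromosome 2 had -4.63, -5.16 and -3.71, but up to 36.4% of their exon words occur elsewhere. The highest share in a member was also 34.4%, 21.7%, 14.6%, 11.4% and 8.6% in the runs holding LHCB2.1, AT4G15050, AT5G58820, AT4G33820 and AT4G32105. In the remaining runs it was at most 3.5%. Reads of the runs with larger shares may be shared with near copies. GH9B10 was at 52.3 and 42.4 CPM in the Col control, 48.7 and 66.3 CPM in the Col hybrid, 27.4 and 24.9 CPM in the C24 control and 1405 and 860 CPM in the C24 hybrid, which alone stood apart.

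Of the 162 lower loci that reached 10 CPM in a seed group, 59 (36.4%) had no read in the A. arenosa control, against 2.95% of all genes of that level and 4.82% of the higher loci. In 63 of them (38.9%) the hybrid silique level was under 0.1 of the highest seed level, against 2.26% of all genes. The limit of 10 CPM and the highest seed level came from the same groups that chose the loci, and only hybrid siliques entered. Part of the silique share thus follows from how the loci were chosen. The A. arenosa share may be affected as well, and neither share supports anything further. The A. arenosa libraries held 1777781 and 2089616 gene reads, counted on the A. thaliana genome. A locus without a read there may thus still be expressed. The C24 silique libraries differed at these loci: of 156 lower loci with reads there, 75 (48.1%) were over 3 times higher in C24 silique 1 than in 2, against 2.00% of all genes, and 1 was over 3 times higher in C24 silique 2.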
